A study of Mus musculus with 3 samples.

Results

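The windows described here are open chromatin windows that lie far from any protein-coding gene, called far windows below. They were chosen by position alone. The midpoint of a far window lay outside every protein-coding gene of RefSeq GRCm38 and over 10 kb from either end of any. Of the 13500 windows of the series, 1183 (8.76%) met that rule. The others comprised 9078 windows within 1 kb of a gene end, 1491 inside genes at 1 to 10 kb from an end, 1130 inside genes over 10 kb from any end, and 618 outside genes at 1 to 10 kb from the nearest end. The 3 far windows nearest to the limit lay 10050, 10051 and 10092 bp from a gene end, and the 3 windows outside genes just short of it lay at 9994, 9923 and 9900 bp.

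The windows came from ATAC-seq, which reads out accessible DNA by where the transposase Tn5 can insert adapters. The libraries were made from cells of the apical part of first molars of C57BL/6 mice at postnatal day 7.5, with 5000 cells from each group in the labels' wording. There were 2 control libraries, labelled Arid1a fl/fl, and 1 mutant library, labelled Gli1-CreER;Arid1a fl/fl. The labels give tamoxifen, 1.5 mg per 10 g body weight at postnatal day 3.5, for all 3 libraries. Cre-driven loss of Arid1a, which encodes a SWI/SNF chromatin remodelling subunit, is limited in this model to cells that expressed Gli1, a target gene of hedgehog signalling, and to their descendants. Each window is an entry of a list pooled over libraries and carries no value per library. Mutant and control were therefore not compared, the depth behind the windows is not known, and the values have no error between replicate animals. The sources used here give neither the selection of the pooled list nor whether animals were pooled. No gene was measured, so tissue markers could not be read.

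Open chromatin away from genes commonly marks enhancers, which bind transcription factors and act on promoters over a distance, and boundary elements. It also includes promoters of long noncoding RNAs, which the protein-coding rule does not remove. Developmental regulators often lie beside long stretches without genes that hold many enhancers. Plagl1, also called Zac1, is a zinc finger transcription factor that binds a GC-rich motif and is known for restraining cell division. The deposited files give the motif sites found by sequence in each window. A site is a match of letters in a window, and it does not show that Plagl1 was bound.

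The reference holds bases only for the promoter entries of annotated genes, so window bases could be read where such an entry covered the whole window. That held for 24 of the far windows searched, all at starts of long noncoding RNA genes, and the GC content of the bases equalled the deposited one in 24 of 24. The 3 printed here differ in their number of sites: the window with the most motif sites, a window with 1 site at a well-known noncoding gene, and a GC-rich window with no site. They do not cover the range of GC content of the 24, which was 42.8% to 80.1%. Bases are from RefSeq promoter entries of GRCm38.p6, plus strand, with motif sites in capitals. Where the sites of the first window overlap, they form 1 run of capitals.
E130018N17Rik, chr2:168154531-168154731: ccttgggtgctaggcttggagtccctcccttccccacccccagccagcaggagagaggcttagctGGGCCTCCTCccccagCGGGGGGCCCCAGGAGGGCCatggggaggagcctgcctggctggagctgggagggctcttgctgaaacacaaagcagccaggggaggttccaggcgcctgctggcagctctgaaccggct
Firre, chrX:50635364-50635564: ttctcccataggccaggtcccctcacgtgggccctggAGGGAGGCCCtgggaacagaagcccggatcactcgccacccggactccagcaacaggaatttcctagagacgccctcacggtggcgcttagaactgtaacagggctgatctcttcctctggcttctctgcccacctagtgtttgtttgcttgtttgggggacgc
Tunar, chr12:105336821-105337021: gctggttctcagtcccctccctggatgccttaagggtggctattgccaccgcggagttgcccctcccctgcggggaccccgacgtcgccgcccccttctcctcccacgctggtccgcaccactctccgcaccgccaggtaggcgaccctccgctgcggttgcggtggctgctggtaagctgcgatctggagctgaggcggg

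The window at E130018N17Rik lay 26334 bp from the nearest protein-coding gene, between Pard6b, a cell polarity gene, and Adnp, a chromatin regulator. It held 4 sites, 2 of them on each strand, with scores of 5.90, 6.54, 6.59 and 5.97. The score is the log-odds match to the motif. The window at Firre, a noncoding RNA of the X chromosome involved in nuclear organization, held 1 site with a score of 6.45 and had a GC content of 59.7%. The window at Tunar, a noncoding RNA studied in pluripotent and neural cells, was richer in GC at 69.7% and held no site.

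Far windows were the poorest in GC and CpG of the 5 position classes. Their median GC content was 54.7% (quartiles 48.3% and 61.7%, SD 10.2 over 1183 windows), against 68.2% within 1 kb of gene ends. Their median CpG frequency was 3 per 100 dinucleotide steps (quartiles 1.5 and 5.5), against 10 at gene ends. Only 154 far windows (13.0%) reached 9 CpG per 100 steps, compared with 61.7% of gene-end windows. No CpG at all was present in 75 far windows (6.34%) and in 8 gene-end windows (0.0881%).

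These differences passed the test against all other windows and against the more similar classes. A linear model over windows, with standard errors clustered by 1 Mb block of the chromosome and Benjamini-Hochberg adjustment over 18 tests, was used. Against all others (n = 13500 windows) mean GC differed by -11.2 points (95% interval -12.1 to -10.3, adjusted p = 1.73e-122) and CpG by -5.13 per 100 steps (-5.42 to -4.83, adjusted p = 1.02e-252). Against windows outside genes at 1 to 10 kb (n = 1801 windows), GC differed by -3.10 points (adjusted p = 7.65e-07) and CpG by -0.992 (adjusted p = 5.55e-06). Against windows deep inside genes (n = 2313 windows), GC differed by -4.20 points (adjusted p = 2.69e-11) and CpG by -1.67 (adjusted p = 5.76e-14). The middle 50% of far windows nevertheless overlapped that of windows deep inside genes, whose quartiles were 50.2% and 69.2% GC and 1.5 and 9.5 CpG. It did not overlap that of windows within 1 kb of gene ends, with quartiles of 62.7% and 73.6% GC and 7.5 and 12.5 CpG.

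**Figure D1:**
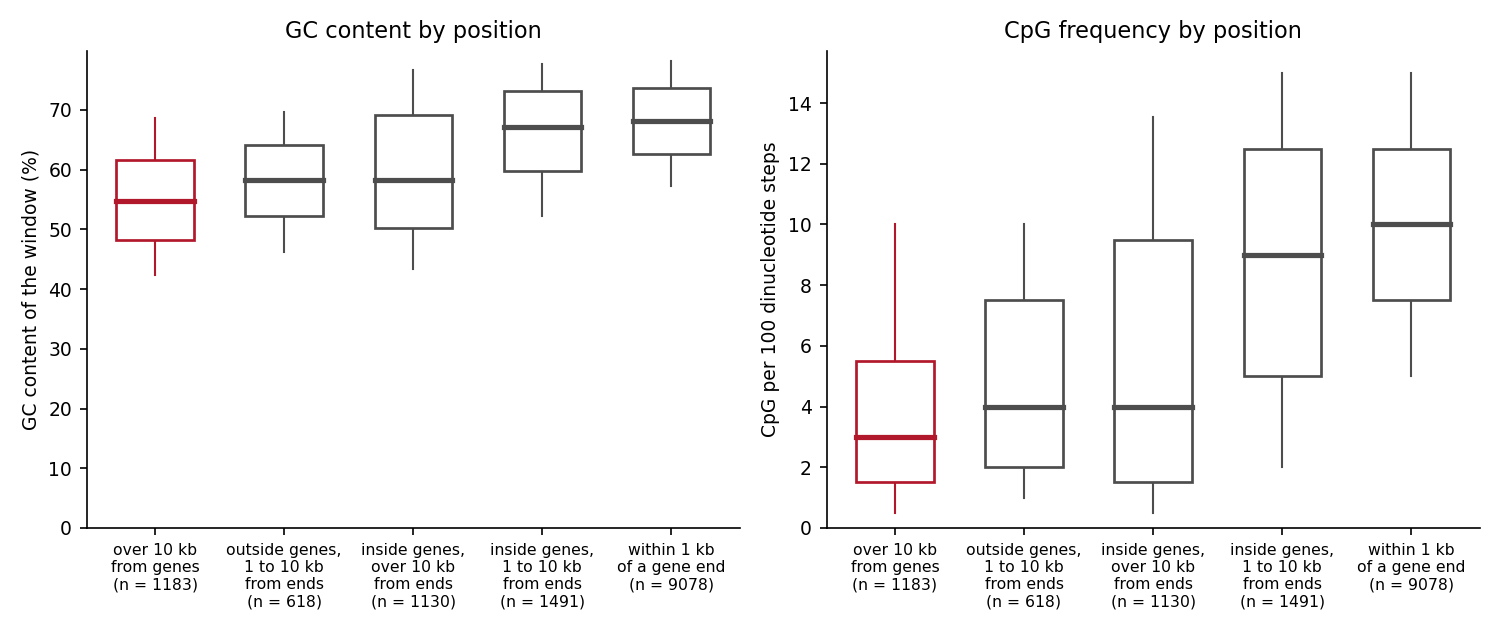
GC content in percent (left) and CpG per 100 dinucleotide steps (right) of windows in 5 position classes, with far windows in red. Thick lines are medians, boxes span the quartiles and thin lines run from the 10th to the 90th percentile. The far windows have the lowest medians, 54.7% GC and 3 CpG per 100 steps.

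Distances from genes spread over a wide range. The median far window lay 34901 bp from the nearest protein-coding gene end (quartiles 18874 and 75443 bp). There were 434 far windows over 50 kb away, 83 over 250 kb away and 7 over 1000 kb away. The farthest, at chr1:102628164-102628364, lay 2137665 bp from Cntnap5b and 2140076 bp from Cdh20, a cadherin, and had a GC content of 46.3% and 1 site with a score of 5.58. Of the 7 over 1000 kb away, 6 held no site, and 4 formed a single cluster on chromosome 2 described below. At chr3:43056529-43056729, a window 1253322 bp from D3Ertd751e and 2321769 bp from the protocadherin gene Pcdh10 held no CpG and no site. A window at chr4:28176852-28177052, 636114 bp from the ephrin receptor gene Epha7, had a GC content of only 33.3%.

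Far windows were sparse for the space they could occupy. Between genes and over 10 kb from any, there were 1371 Mb of sequence and 0.826 windows per Mb (exact Poisson interval 0.778 to 0.875, counting error only, 1132 windows). The density was 2.80 per Mb outside genes at 1 to 10 kb, 1.54 deep inside genes, and 115 within 1 kb of gene ends. Unsequenced stretches of the assembly were not subtracted.

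Within the far space, density went down as the gap between genes grew. Gaps of 20 to 50 kb held 3.42 far windows per Mb (2.92 to 3.98) and gaps over 1000 kb held 0.178 (0.142 to 0.219). The 4 gap lengths between them fell in order, at 2.39, 1.55, 0.712 and 0.427 per Mb, and no interval overlapped its neighbour's. The share of gaps with at least 1 far window moved the other way, from 3.78% of 4021 short gaps to 20.1% of 283 gaps over 1000 kb. This share was not adjusted for room. The 4021 short gaps held 49.1 Mb of far space in all and the 283 longest held 496 Mb, so a long gap offers far more room for a window. Median GC content of the far windows was 57.2% in the shortest gaps and 48.3% in the longest, and median CpG was 4 and 1.5 per 100 steps. Of 9138 gaps over 20 kb, 837 held a far window, and 654 of these held just 1.

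**Figure D2:**
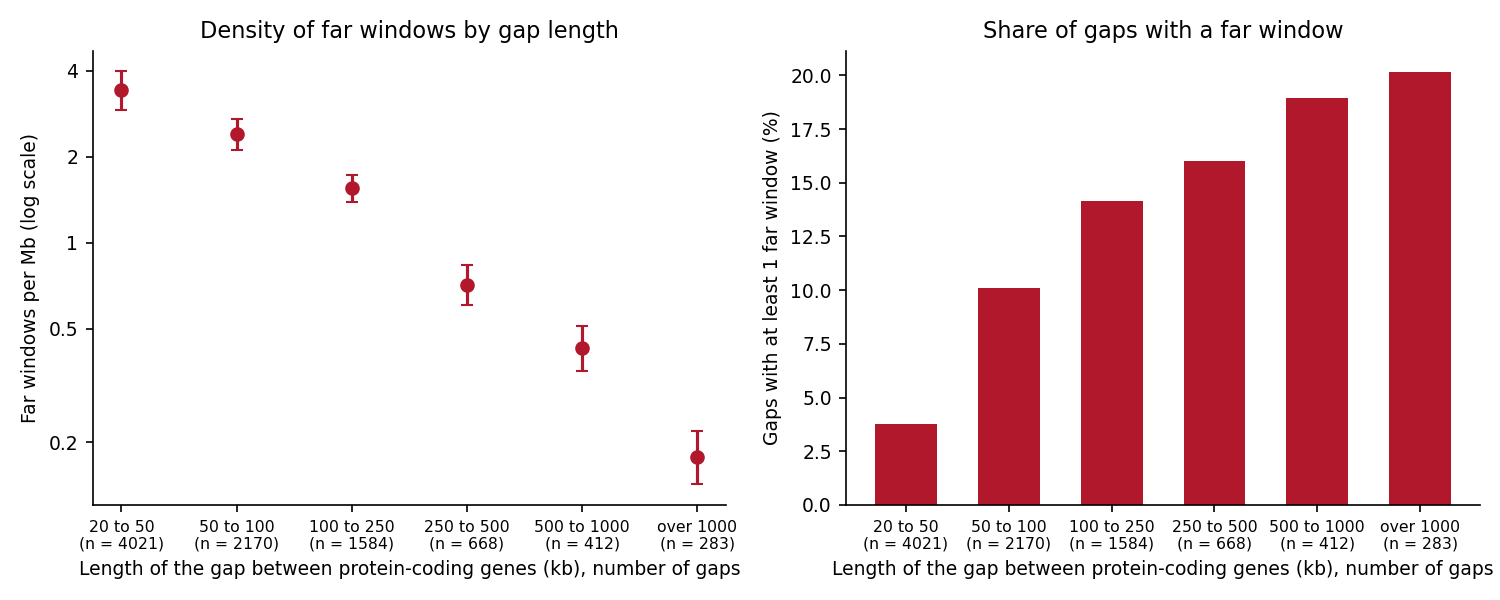
Far windows per Mb of far space on a log axis (left, points with exact 95% Poisson intervals) and percent of gaps with at least 1 far window (right, bars), by length of the gap between protein-coding genes in kb. Density is 3.42 per Mb in the shortest gaps and 0.178 in the longest, while the share of gaps with a window is 3.78% and 20.1%. The share is not adjusted for the room in a gap.

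Density also differed between chromosomes. Chromosome 11 had 1.47 far windows per Mb (1.15 to 1.86), chromosome 17 had 1.40 (1.06 to 1.80), and the X chromosome had 0.427 (0.312 to 0.569). The interval of the X chromosome did not overlap those of chromosomes 11 and 17. The order was reversed for far windows as a share of all windows of the chromosome. That share was 6.44% on chromosome 11, 9.74% on chromosome 17 and 13.3% on the X chromosome, against 8.76% in the series. The density of far windows therefore does not show that the X chromosome was poor in them relative to its other windows. The Y chromosome had the lowest density, 0.0240 per Mb (0.00291 to 0.0867), from 2 far windows between genes in 83.4 Mb. All 5 windows of the series on the Y chromosome were far windows.

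Most far windows stood alone. When windows with midpoints within 10 kb were chained together, 976 were single and 207 (17.5%) fell into 83 clusters, 62 of them pairs. The median distance from a far window to the next was 743314 bp. The count in clusters follows the chaining distance, with 47 windows at 1 kb and 368 at 50 kb.

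The largest cluster held 17 windows at chr9:3000824-3038107, where the sequence of chromosome 9 begins. All 17 were poor in GC, at 32.8% to 37.8%, with 1 to 3.5 CpG per 100 steps, and none held a site. The nearest protein-coding gene was Alkbh8, a tRNA modification enzyme, at 297224 bp from the last window. A cluster of 4 at chr2:98662259-98667042 was alike in composition, with 30.8% to 36.8% GC and no site, and lay over 1000 kb from Lrrc4c, a neuronal adhesion gene. In the first 200 kb of sequence of 9 chromosomes there were 33 far windows, 17 of them those of the chromosome 9 cluster. The other 16 had a median GC content of 47.5%, and 2 of them held a site. Whether reads map uniquely to these stretches was not tested. Without clusters of 4 or more windows, the GC and CpG differences above stayed past the threshold.

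Other large clusters were of different composition. A cluster of 4 at chr12:86816272-86836832, between Lrrc74a and Irf2bpl, had 55.7% to 65.7% GC and held 2 sites in 2 windows. On the X chromosome, 4 windows at chrX:31158825-31162980, between Btbd35f29 and Spin2f, had at most 0.5 CpG per 100 steps and yet held 3 sites in 3 windows. The 6 windows at chr8:20513143-20520655, between Gm15319 and Gm40469, ranged from 29.9% to 52.2% GC and held 2 sites. These last neighbours bordered 19 and 14 far windows in all, and only Alkbh8, with 18, bordered more than 9 besides them.

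Motif sites were present in 375 far windows (31.7%, exact Clopper-Pearson interval 29.1% to 34.4%), which held 507 of the 5753 sites. Among all other windows 33.0% had a site. The odds ratio of far against all other windows was 0.941 (0.821 to 1.08, adjusted p = 0.523, logistic model clustered by 1 Mb block, n = 13500 windows). At equal GC and CpG it was 1.07 (0.925 to 1.23, adjusted p = 0.523). Against windows outside genes at 1 to 10 kb the odds ratio was 0.908 (0.735 to 1.12, adjusted p = 0.523, n = 1801 windows), and against windows deep inside genes it was 0.938 (0.784 to 1.12, adjusted p = 0.626, n = 2313 windows). A difference in either direction within these intervals was not excluded. Without the far windows inside or within 1 kb of a noncoding gene, the odds ratio against all others was 0.795 (0.662 to 0.954, adjusted p = 0.0245, n over 10000 windows), which passed the threshold. The GC difference was then -12.9 points, and at equal GC and CpG the odds ratio was 0.927 (0.771 to 1.12, adjusted p = 0.475, n over 10000 windows), which did not. Only the far class lost such windows in these fits, and the other classes kept theirs. Among far windows a site was present in 40.4% at noncoding gene ends and 33.0% inside noncoding genes, against 28.2% at neither.

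The share with a site was lowest in GC-poor windows, far and other alike. It was 17.8% of 174 far windows under 45% GC, 33.2% of 232 at 50% to 55%, and 42.7% of 103 at 70% or more. The other windows had 16.5%, 26.7% and 35.9% in the same ranges. Far windows had the higher share in 5 of 7 ranges of GC. The exceptions were 45% to 50%, at 25.1% far against 27.4%, and 65% to 70%, at 34.8% against 34.9%. The intervals of far and other windows overlapped in every range of GC. With GC as the only covariate in the logistic model, however, the odds ratio against all others passed the threshold. It was 1.19 (1.04 to 1.37, adjusted p = 0.0274, n = 13500 windows), whereas the fit at equal GC and CpG above did not pass.

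Most far windows with a site had 1, as 283 of 375 did. There were 68 with 2 sites, 15 with 3, 5 with 4 and 4 with more. The best score per window had a mean of 6.12 in far windows and 6.08 in the others, a difference of 0.0346 (-0.0181 to 0.0874, adjusted p = 0.356, n = 4444 windows).

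Of the bases of the sites, the 1 at position 5 was tested. Each site has 10 bases, with position 1 at the 5′ end on the strand of the motif, and guanine stands at position 6 in all. Position 5 is adenine or guanine in all 5753 sites. The examples below show the best far match, the most repeated far sequence and the far sequence second in number, which carries guanine there.
Best far match, at chr6:86487587-86487596: CATGAGGCCC
Most repeated far site, at chrX:170736573-170736582 and elsewhere: TGTGAGGCCC
Second in number: CAGGGGGCGC

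Adenine stood at position 5 in 292 of 507 far sites (57.6%, exact interval 53.2% to 61.9%), against 43.6% of the others. The share was 48.4% outside genes at 1 to 10 kb, 45.3% deep inside genes and 43.2% at gene ends. The odds ratio was 1.76 against all other sites (1.39 to 2.23, adjusted p = 6.8e-06, n = 5753 sites) and 1.64 against sites deep inside genes (1.23 to 2.20, adjusted p = 0.00201, n = 1013 sites). Against sites outside genes at 1 to 10 kb it was 1.45 (1.03 to 2.04, adjusted p = 0.0632, n = 780 sites), which missed the threshold. GC and CpG of the window moved with this difference. At equal GC and CpG the odds ratio against all others was 1.25 (0.978 to 1.59, adjusted p = 0.177, n = 5753 sites), so the call was lost. The ratio against deep intragenic sites was then 1.49 (1.12 to 1.99, adjusted p = 0.0373, n = 1013 sites). These fits were added after the files were seen and adjusted as a group of 6. The higher share of adenine was not limited to position 5. Far sites also had more adenine at position 2, 44.97% against 33.36%, and at positions 1, 3, 9 and 10. Positions 4, 6, 7 and 8 held no adenine in far or other sites. Cytosine at position 1 was lower in far sites, 34.1% against 44.5%. No test was made for positions other than 5.

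**Figure D3:**
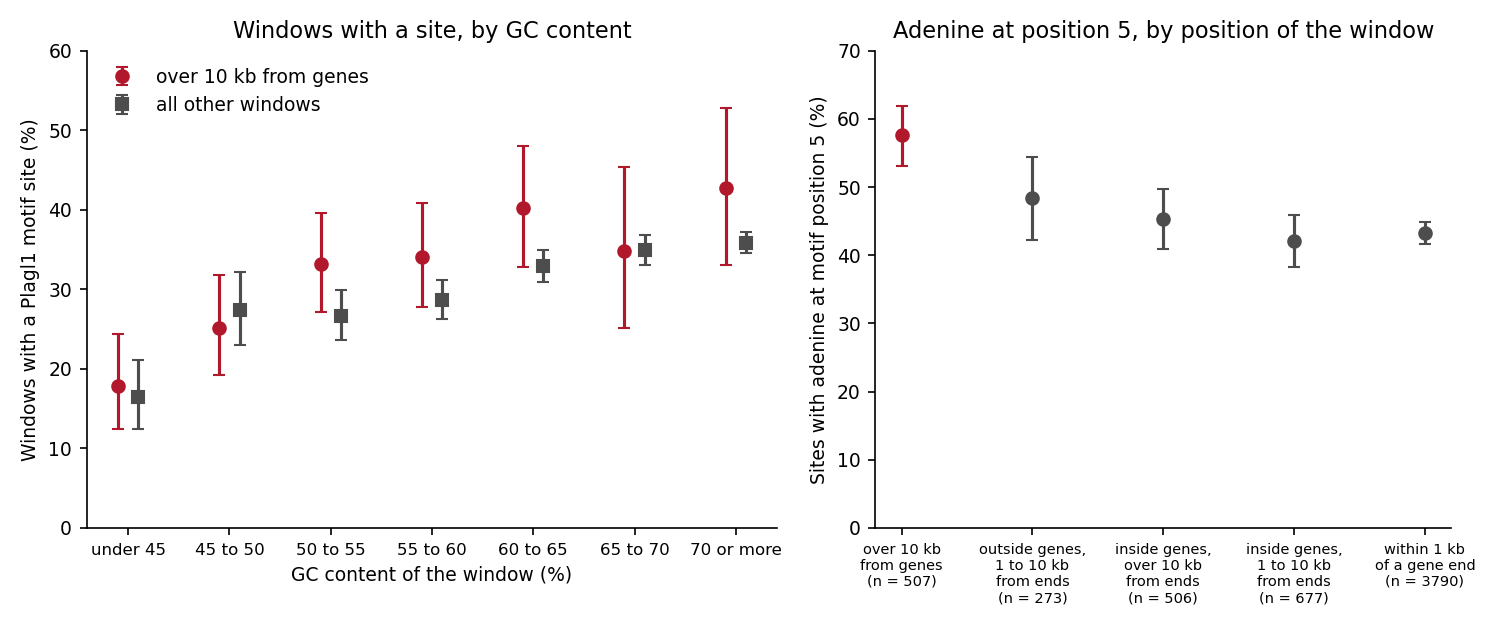
Left, percent of windows with a Plagl1 motif site by GC content of the window, for far windows (red circles) and all other windows (grey squares). Right, percent of sites with adenine at motif position 5 by position of the window, with far windows in red; bars are exact 95% intervals. The far share is 57.6%, and the other 4 classes lie between 42.1% and 48.4%.

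A single locus carried most copies of the site sequence repeated most among far windows. TGTGAGGCCC, with a score of 7.20, occurred 25 times in the series and 18 of these were in 4 far windows beyond the last protein-coding gene of the X chromosome. The 4 windows lay at 58590, 132773, 135082 and 165025 bp from Asmt, which encodes the last enzyme of melatonin synthesis, and held 5, 5, 6 and 7 sites. These were the far windows with the most sites. All 18 copies were on the minus strand, and neighbouring copies within a window were often 31 bp apart. The windows had 53.2% to 58.2% GC and at most 1 CpG per 100 steps. Whether reads map uniquely to these 4 windows was not tested. The other 7 copies were in 7 windows of other classes, on chromosomes 1, 4, 6, 11, 12, 15 and 17. Without the 4 windows beside Asmt the odds ratio for adenine at position 5 was 1.62 against all other sites (adjusted p = 3.77e-07, n over 5000 sites).

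CAGGGGGCGC, in contrast, was spread out, with 14 far copies in 14 windows and 84 in the series. Its score was 5.52, close to the lowest listed. Far windows held 16.7% of its copies, against 8.81% of all sites. The sequence was named for its number of far copies, so that choice partly fixed the higher share. No test of it was made. The same letters stand in the core of the sequence bound by CTCF, an insulator protein, whose binding was not measured here. Of the 642 distinct site sequences in the series, 315 occurred in far windows and 199 of those just once there. The best far match, CATGAGGCCC with a score of 7.54, occurred between C87436 and Pcbp1, an RNA-binding protein gene, on chromosome 6. The same sequence lay on chromosome 17 between Myom1, a sarcomere gene, and Lpin2, a lipid enzyme gene. Another of the 10 best far sites, CAAGAGGCCC with a score of 7.28, was 72067 bp from Wnt7b, a Wnt ligand gene.

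Far windows at noncoding genes were common. In all, 455 (38.5%) lay in a noncoding gene or within 1 kb of one of its ends: 267 were at an end, 188 were inside, and 728 were at neither. Long noncoding RNA genes accounted for 379 of them. With noncoding genes put under the same rule as protein-coding ones, 487 far windows would remain.

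Windows at noncoding gene ends were richer in GC, CpG and sites than the other far windows. Their median GC content was 59.2%, against 54.7% inside noncoding genes and 53.2% at neither. A site was present in 108 of 267 (40.4%), in 33.0% of those inside, and in 28.2% of those at neither. Against the other far windows mean GC differed by 6.09 points (4.69 to 7.49, adjusted p = 2.73e-17, n = 1183 windows) and CpG by 2.54 per 100 steps (1.99 to 3.10, adjusted p = 1.74e-18, n = 1183 windows). The odds ratio for a site was 1.65 (1.24 to 2.21, adjusted p = 0.000941, n = 1183 windows) and at equal GC and CpG it was 1.58 (1.16 to 2.16, adjusted p = 0.00398, n = 1183 windows). These 4 tests were added after the files were seen and adjusted among themselves.

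**Figure D4:**
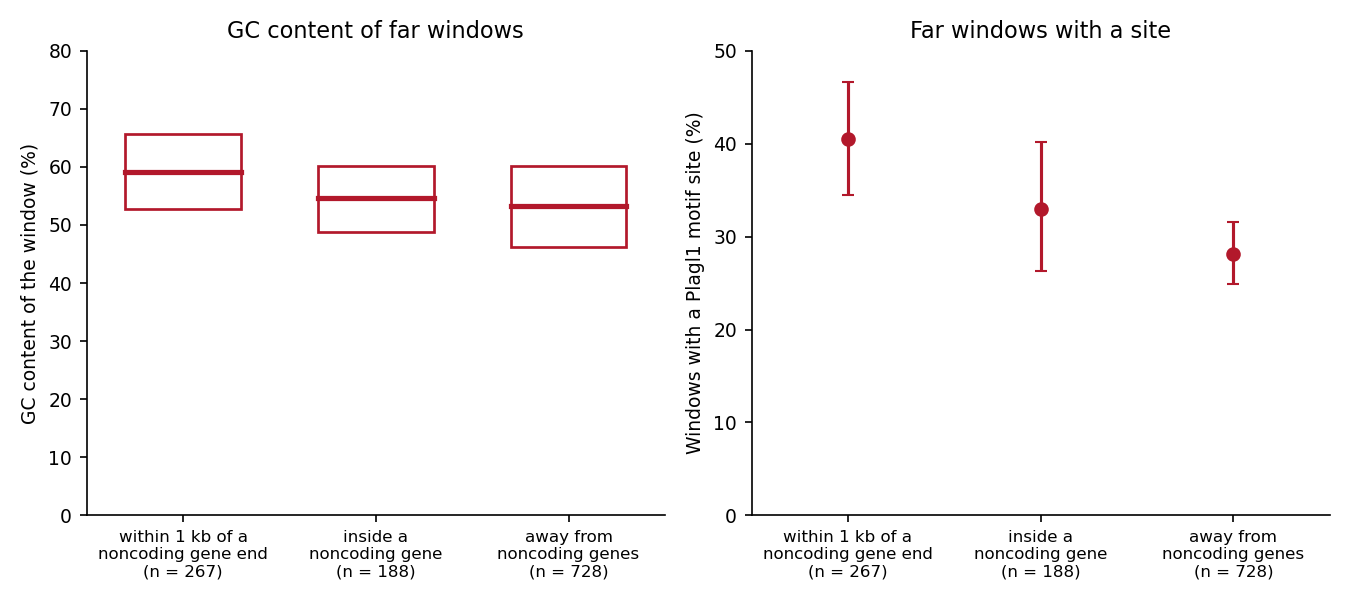
Far windows within 1 kb of a noncoding gene end, inside a noncoding gene, or at neither. Left, GC content in percent, with medians as thick lines and quartiles as boxes; right, percent of windows with a Plagl1 motif site, with exact 95% intervals. Windows at noncoding gene ends have the highest median GC, 59.2%, and the highest share with a site, 40.4%.

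Among the far windows, 103 overlapped the promoter entry of a noncoding gene. The examples named here were chosen after their values were seen, as genes with a known role. Jpx, a noncoding activator of the X inactivation RNA, had a window with 58.7% GC and no site. Dleu2, the host gene of a miRNA pair that restrains the cell cycle, had a window with 75.6% GC and 1 site. Snhg5 and Snhg20, both named as small nucleolar RNA host genes, each had a window with 1 site, with scores of 5.51 and 6.19. Chaserr, which lies beside the chromatin remodeller gene Chd2, had a window with 71.6% GC and 12.5 CpG per 100 steps but no site. A further window lay at Terc, the RNA of telomerase, with 63.7% GC and 1 site.

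Each far window between genes has a protein-coding gene on either side. Of the 12847 genes beside a gap over 20 kb, which could border a far window, 1598 did, or 12.4%. Of all 21779 protein-coding genes, 1605 did, or 7.37%. Most bordered 1 far window, as 1194 genes did. Strand was known for only 75% of the nearest genes, under the 80% needed, so a check of whether gene starts or ends faced the windows is void. A neighbour in the sequence is not shown to be a gene the window acts on. Distances in the lists below are to the listed gene, and the gene on the other side was nearer to some of these windows. Because a longer gap offers more room, the median length of the longest gap beside the genes is given with each list below, and it was 65.9 kb over all genes that could border a far window. The lists were described by counts, with no test. Every list below other than the olfactory receptor genes had a larger share than 12.4%.

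None of the 3 genes of the study bordered a far window. Plagl1 lies beside a gap of 81.6 kb and Arid1a beside one of 35.3 kb, and both gaps were without far windows. Gli1 could not border one, since its longest gap is 7.82 kb.

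Genes for jaw and tooth transcription factors bordered far windows in 21 of 65 cases (32.3%), beside long gaps with a median of 328 kb. Msx2, a homeobox factor needed for tooth development, had 3 far windows, at 59244, 215998 and 282718 bp. The nearest of these had a GC content of 34.8% and a site with a score of 6.93, and the others had 55.2% GC and no site. Klf4, a zinc finger factor of odontoblasts and epithelia, also had 3, at 12127, 46319 and 118908 bp, and the farthest held 2 sites. Zeb1 and Tcf4, regulators of mesenchymal state and of basic helix-loop-helix partners, had 3 each on chromosome 18.

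Genes of BMP and TGF-beta signalling, which drives tooth patterning and dentin formation, bordered far windows in 16 of 40 cases (median gap 191 kb). Among the ligands, Bmp4 had windows at 49721 and 71340 bp, on opposite sides, both with 45.3% GC and the farther with 1 site. Bmp2 had windows at 187141 and 892230 bp with 43.8% and 41.8% GC and no site. Tgfb2 had a window at 12683 bp with no site and one at 276279 bp with 3 sites. The inhibitor Id4, a target of BMP signalling, had 4 windows from 33061 to 987421 bp, of which the farthest held a site with a score of 6.66. That window was nearer to Rnf144b, at the other end of a gap of 1013 kb.

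In the hedgehog pathway, which acts through Gli factors, 4 of 15 genes bordered a far window (26.7%, median gap 146 kb). Gas1, a hedgehog co-receptor, had 3, at 123301, 187646 and 298565 bp, and the nearest held a site with a score of 5.85. Cdon, another co-receptor, Hhat, which attaches palmitate to hedgehog ligands, and Scube3, a secreted protein of the family that helps release them, had 1 each. The windows beside Cdon and Scube3 lay at 116124 and 18962 bp.

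Wnt genes bordered far windows in 12 of 47 cases (25.5%, median gap 108 kb). All 4 windows of Wnt7b lay on the side of Ppara, at 29062, 52959, 72067 and 88911 bp. Their GC content was 58.7%, 65.2%, 65.7% and 83.1%, so the one farthest from Wnt7b was among the 3 far windows with the highest GC. They held 0, 1, 2 and 0 sites. Wnt10a, mutated in inherited tooth agenesis, had 1 window at 12935 bp with 69.2% GC and no site. Sfrp2, a secreted Wnt modulator, had 1 window at 15716 bp with 2 sites, the better with a score of 6.87.

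FGF and Notch genes were near the background, with 6 of 36 (16.7%, median gap 91.8 kb). Hes1, a repressor induced by Notch, nevertheless had 4 windows, at 56450, 119203, 120369 and 251274 bp, all with 63.7% to 76.1% GC. The farthest held 3 sites and the others none. Guidance and adhesion genes were also near it, with 9 of 51 (17.6%), although their median gap was 1249 kb.

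Dentin and bone matrix genes bordered far windows in 8 of 30 cases (26.7%, median gap 102 kb). Tnc, an extracellular glycoprotein of dental mesenchyme, had 3 windows at 111037 to 415604 bp, of which the farthest had 2 sites at 40.3% GC and no CpG. Fmod, a collagen-binding proteoglycan, had 2, and the nearer was shared with Btg2, as its other neighbour. Alpl, the mineralization phosphatase, had 1 at 39731 bp with no site, and Mmp20, an enamel protease, 1 at 32897 bp with no site.

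Immediate early genes, transcribed within minutes of a stimulus, bordered far windows in 8 of 16 cases at a median gap of 68.3 kb, close to that of all genes. Fosb had 3, at 16517, 17153 and 22897 bp, with 60.2% to 68.2% GC and no site. Fos had 2, at 18452 and 95080 bp, and the farther held 1 site. The 4 windows of Myc lay at 47643, 146967, 472495 and 475168 bp, none with a site; the nearest 2 were at the noncoding gene Pvt1.

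Cell cycle genes on both sides of the switch bordered far windows. Among the inhibitors 7 of 18 did (38.9%, median gap 88.6 kb), and among the drivers 5 of 12 (41.7%, median gap 118 kb). The share over all genes that could border a far window was 12.4%. Counted over all listed genes, whatever their gaps, 7 of 25 inhibitors (28%) and 6 of 32 drivers (18.8%) bordered one. The share of all protein-coding genes on that basis was 7.37%. Btg2, an antiproliferative gene, had 3 far windows at 13713, 14011 and 20208 bp, on both sides, and 1 of them held a site with a score of 5.70. Cdkn1b, which encodes the kinase inhibitor p27, had 1 at 36587 bp with 46.3% GC and no site. Of the drivers, Mycn and Ccne1 had 2 each and Ccnd1 had 1. Mki67, a marker of dividing cells that was counted on the same list, had 1. Of SWI/SNF subunit genes 4 of 12 that could border a far window did (33.3%, median gap 57.7 kb), or 4 of all 28 listed (14.3%). Arid1b, the paralogue of Arid1a, had 2 windows with 1 site each, at 85938 and 953812 bp.

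Markers of other cell types that a digested molar could hold also bordered far windows, on lists of 13 genes or fewer. For dental epithelium they were 2 of 13 (15.4%, median gap 70.1 kb), and for immune cells 2 of 11 (18.2%, median gap 32.7 kb). Endothelial markers had 2 of 9 (22.2%, median gap 116 kb). Glial and neuronal markers had 3 of 11 (27.3%, median gap 150 kb), and pericyte and smooth muscle markers 1 of 5 (20%, median gap 56.9 kb). That 1 gene was Notch3, which is also on the FGF and Notch list. Each of these marker shares rests on 1 to 3 genes, and the share over all genes that could border a far window was 12.4%. No marker list is read as differing from that share, since no test was made. The shares of the endothelial and glial lists were similar in size to those of the Wnt, hedgehog and dentin lists. Epcam of epithelium, Tyrobp of myeloid cells and Cdh5 of endothelium had 2 far windows each. Both windows of Cdh5 were shared with its other neighbour Cdh11, which is on the guidance and adhesion list. They lay 72846 and 830362 bp from Cdh5, and the farther was nearer to Cdh11. Olfactory receptor genes, a family silent outside sensory neurons in most tissues, were at the other extreme: 7 of 758 that could border a far window did (0.923%), with a median gap of 33.4 kb.

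**Figure D5:**
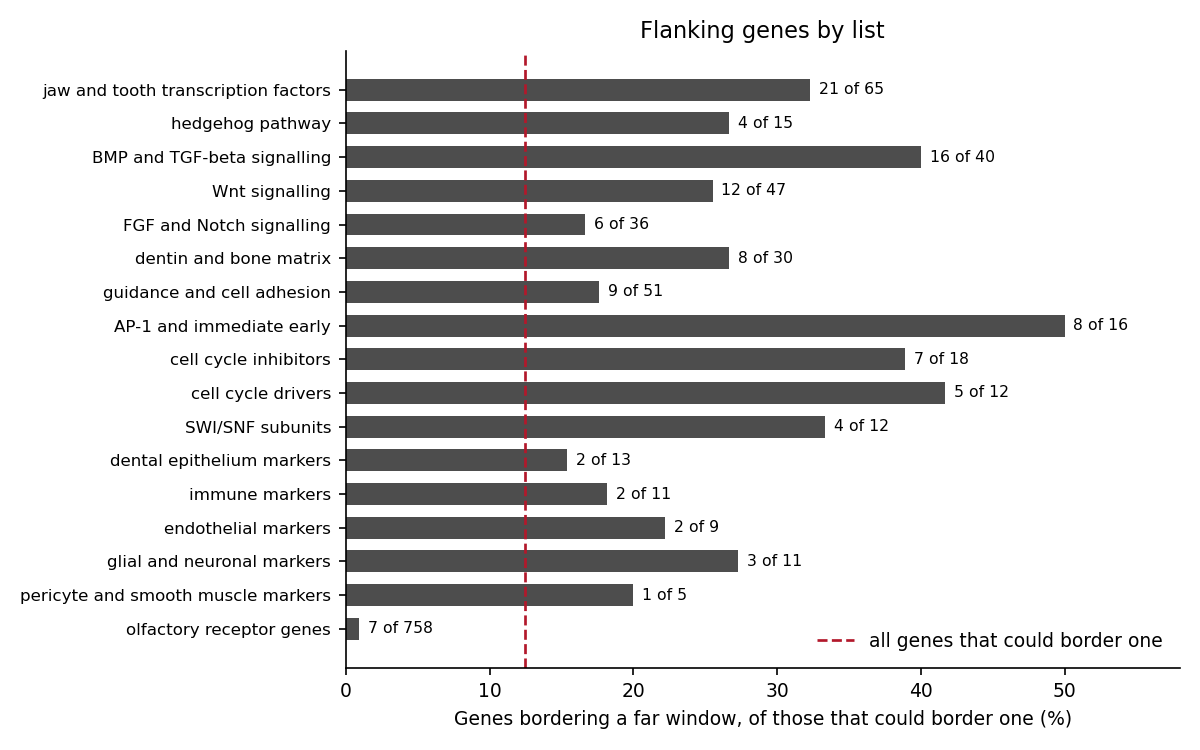
Percent of the genes of each list that border a far window, among those beside a gap over 20 kb, with the counts at the bars. The dashed line is the 12.4% of all such genes; immediate early genes are at 8 of 16 and olfactory receptor genes 0.923%.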

How the data were processed

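ATAC-seq was done on 2 control libraries and 1 mutant library. Per the submitters' processing notes, the tools were Bowtie2 2.3.5, MACS2 2.1.1, cutadapt 1.18, FastQC 0.11.8, edgeR, bedtools and Picard, with mm10 as the genome. Per the file headers, the authors ran HOMER annotatePeaks with the Zac1 (Plagl1) motif on a pooled union list, giving windows of 201 bp. The deposited GC value is a fraction, turned here into percent, and the CpG column, deposited as CpGs divided by the number of steps between bases, is given per 100 steps. Window bases were not read on chromosome 18. The deposited site score is a log-odds score whose log base is not stated. Site letters in the deposited annotation are those of the plus strand and were turned to the motif strand.

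Genes were RefSeq GRCm38.p6. Of its protein-coding entries, 108 ending before 3 Mb outside the Y chromosome, where entries of extra scaffolds carry chromosome names, were left out, with no change in the far windows; 21779 stayed. Tests compared far windows with all others, windows outside genes at 1 to 10 kb and windows deep inside genes on 6 measures, with standard errors clustered by 1 Mb block and Benjamini-Hochberg adjustment over 18 tests at 0.05. Models were tested on simulated data. Windows are not biological replicates, so p-values measure the spread between windows of 1 pooled list, and intervals of shares and densities cover counting error only. The members and lists were chosen with earlier results of these data known. Named by rule were the 10 farthest windows, the 5 largest clusters, the extremes of site number and GC, the windows closest to 10 kb, the 10 best sites, Plagl1, Arid1a, Gli1, the 10 genes bordering the most far windows and up to 4 genes per list; the text names a part of these. Alternatives changed the distance, gene set, clusters, chromosomes, covariates, score minimum and errors. Models were fitted with statsmodels 0.14.6, intervals came from scipy 1.17.1, and figures from matplotlib 3.10.9, in Python 3.11.15 with pandas 2.3.3 and numpy 2.4.6.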

Additional observations from a re-analysis of the deposited data

How the results depend on the processing

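Of 215 alternative values, 179 were held to be unchanged, among them every GC and CpG difference and every value of the noncoding comparison. A test result had to keep both direction and side of the threshold. The numbers of far windows with 5 kb and 20 kb limits, 1467 and 858 against 1183, were counted as unchanged by size alone. The rest of the 215 values concern sites and counts. Where windows at noncoding genes were left out, they were removed from the far class alone. The share of windows with a site passed the threshold as lower in far windows with all annotated genes in the rule (odds ratio 0.767 against all others) and without windows at noncoding genes (0.795 against all others, 0.767 against windows outside genes at 1 to 10 kb, 0.792 against deep intragenic windows), and as higher against all others with GC as the sole covariate (1.19). At equal GC and CpG against all others, its direction turned with all genes (0.902), without windows at noncoding genes (0.927) and with a minimum score of 6 (0.990). Against windows outside genes at 1 to 10 kb it turned with a 5 kb limit (1.08, and 1.18 at equal composition), and at equal composition with 20 kb (1.06), 1 window per cluster (1.01) and GC alone (1.00). Against deep intragenic windows it turned at 20 kb (1.00), and at equal composition with 5 kb (1.03), 20 kb (1.04), 1 window per cluster (1.04), GC alone (1.04) and added squares and product (1.01). Best score turned with 5 kb, all genes and without noncoding windows, to 0.00532, 0.0256 and 0.00827 against windows outside genes and to 0.0131, 0.0529 and 0.0184 against deep intragenic windows. None of these reversals passed the threshold; the cause was not tested. Adenine at position 5 lost its call against all others at equal GC and CpG (1.25), and gained one against windows outside genes with all genes (1.81), 1 window per cluster (1.52), windows as independent (1.45) and without noncoding windows (1.74). By construction, counts moved to 487 far windows with all genes, to 47 and 368 clustered windows at 1 and 50 kb, to 0.958 and 0.662 windows per Mb at 5 and 20 kb, and to 7.37% of genes with all genes as background. The noncoding comparison, added squares, the large-cluster and Asmt exclusions, and composition covariates for score and position 5 were chosen after seeing the data. No paired analysis was possible because windows carry no value per library. Depth is unknown, so differences in how reliably far and other windows were detected could not be limited.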
